A study of Mus musculus with 10 samples.

Results

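Kinesin genes were examined in RNA sequencing libraries of BECs, brain endothelial cells, which form the inner wall of cerebral blood vessels. Members were the protein-coding genes whose symbol in the GENCODE M21 annotation begins with Kif and a digit, or is Kifc1, Kifc2, Kifc3 or Klc1 to Klc4. Of 46 such symbols in the annotation, 32 had values among the 14106 genes of the deposited table. They comprised 27 motor heavy chains, 4 kinesin light chains and Kif1bp, which met the rule by its letters but encodes a kinesin-binding protein without a motor. The other 14 genes, among them Kif11, Kif14, Kif15, Kif17, Kif4 and Kifc1, were not analysed here. The members fell into 11 of the 13 kinesin groups searched.

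The libraries came from CD31+CD45- cells of female mice that were 1 year old, taken from the cortex. The 5 APP/PS1 libraries were compared with 5 libraries from age-matched control mice, which the labels call WT. APP/PS1 mice carry the transgenes APPswe and PSEN1dE9, an amyloid precursor protein with the Swedish mutation and a mutant presenilin, and deposit amyloid-β in the brain. The study describes both transgenes as expressed ubiquitously, so they are not confined to neurons. Whether a library held the cells of 1 mouse or of a pool is not stated in the sources used here, so each SD is the spread between libraries and may be technical. Values are log2 CPM, the log2 of counts scaled to library size times a normalization factor and adjusted for batch by the authors. TMM, a trimmed mean of log ratios between libraries, reproduced these factors. Totals ran from 22371766 to 126686149 adjusted counts, with both libraries of pair 1 the shallowest. All 10 genes listed as endothelial markers, such as Cldn5 and Pecam1, were measured, and their sum lay between 26528 and 29173 CPM in every library. Replicate numbers pair 1 control with 1 APP/PS1 library, and a difference is always APP/PS1 minus control.

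Kinesins are motors that use ATP to walk along microtubules, most of them toward the plus end, with cargo such as mitochondria, vesicles and RNA granules. Kinesin-1 is built from heavy chains (Kif5a, Kif5b and Kif5c) and light chains that bind cargo, and kinesin-3 carries synaptic vesicle precursors and other membrane organelles. Kif5b is made in most tissues, whereas Kif5a, Kif5c, Kif1a and Kif21b are best known from neurons. Other kinesins build cilia or move chromosomes in dividing cells.

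The sequences before the starts of 3 members are shown because these genes stand at the ends of what follows. Kif1c had the highest level per length of all 32 members, and Kif5c and Kif1a were among the 4 members that were lower by more than 1 log2 unit in APP/PS1 BECs. The sequences are from RefSeq on the build GRCm38.p6, 5′ to 3′ on the strand of the gene, and hold only bases outside the GENCODE gene. Capitals mark matches to promoter motifs on either strand. The GC box was searched as GGGCGG. For the TATA box the letters were TATAAA. The third motif was the CCAAT box, under its own letters. The motifs do not overlap one another in the windows shown.
Kif1c, chr11:70700298-70700547, plus strand: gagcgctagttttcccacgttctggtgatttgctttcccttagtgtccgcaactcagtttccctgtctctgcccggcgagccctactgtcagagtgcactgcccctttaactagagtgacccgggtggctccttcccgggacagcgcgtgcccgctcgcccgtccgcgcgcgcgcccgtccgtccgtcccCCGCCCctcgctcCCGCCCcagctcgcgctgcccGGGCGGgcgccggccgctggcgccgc
Kif5c, chr2:49619036-49619285, plus strand: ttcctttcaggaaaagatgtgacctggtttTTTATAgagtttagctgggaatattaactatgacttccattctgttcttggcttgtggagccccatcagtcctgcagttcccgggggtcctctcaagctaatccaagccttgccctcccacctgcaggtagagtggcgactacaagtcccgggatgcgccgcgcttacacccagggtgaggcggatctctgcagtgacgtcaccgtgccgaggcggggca
Kif1a, chr1:93101952-93102124, minus strand: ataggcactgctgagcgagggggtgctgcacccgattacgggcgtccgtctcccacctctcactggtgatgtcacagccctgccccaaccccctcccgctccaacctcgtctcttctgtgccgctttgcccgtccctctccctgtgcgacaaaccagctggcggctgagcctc

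The 250 bases before the start of Kif1c held 3 GC boxes, a GC content of 70.8% and 32 CG dinucleotides. Those of Kif5c held no GC box, a GC content of 55.2%, 11 CG dinucleotides and 1 TATA box match, which lies on the opposite strand. The 250 bases before the outermost start of Kif1a held none of these motifs, at a GC content of 69.2% and with 22 CG dinucleotides. The table had windows for 23 of the 32 members, 27 windows in all, and lacked Kif13b, Kif1bp, Kif20a, Kif21b, Kif5a, Kif5b, Kifc2, Kifc3 and Klc2. A GC box stood in 20 of the 27 member windows, beside 32.7% of all 32851 promoters. A CCAAT box stood in 10 of the 27, beside 33.9% of all promoters, and a TATA box match in 3 of the 27, beside 12.4%. Median GC content was 66.8% in the member windows and 52.4% in all promoters. Unlike the members, the 32851 promoters were not limited to genes with values in these libraries. Kif1a, Kif1b, Kif2a and Kif9 each had more than 1 window, and both windows of Kif9, which overlap, held a TATA box match. These matches are a description of the letters in the windows, and no binding was measured.

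The kinesins of BECs spanned a wide range of levels per length of exon. Kif1c, a kinesin-3 that carries membrane organelles, had 71.5 ± 4.27 CPM per kb in control BECs (SD, n = 5). It was followed by Klc1 with 47.0 ± 1.20, Kif26a with 42.4 ± 1.94, Kif5b with 38.4 ± 1.61, Kifc3 with 25.4 ± 1.22 and Kif1b with 17.6 ± 0.556 CPM per kb. Each of these neighbours differed by more than the sum of their SDs, with the narrowest margin between Kif26a and Kif5b. These SDs come after the batch adjustment and reflect the pair differences, and levels were not tested between genes. Kif26a is a kinesin of the kinesin-11 group whose motor does not move along microtubules, and Kifc3 is a minus-end-directed kinesin-14. At the other end, Kif26b had 0.0966 ± 0.0164 and Kif24 0.133 ± 0.0255 CPM per kb in control BECs, and these neighbours did not differ beyond their spread. In APP/PS1 BECs Kif1c had 67.9 ± 4.27, Klc1 48.6 ± 1.29, Kif26a 40.7 ± 1.93, Kif5b 40.2 ± 1.69 and Kif26b 0.112 ± 0.0183 CPM per kb, and the lowest member was Kif21b with 0.0984 ± 0.0334. There Kif26a and Kif5b did not differ beyond their spread.

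**Figure D1:**
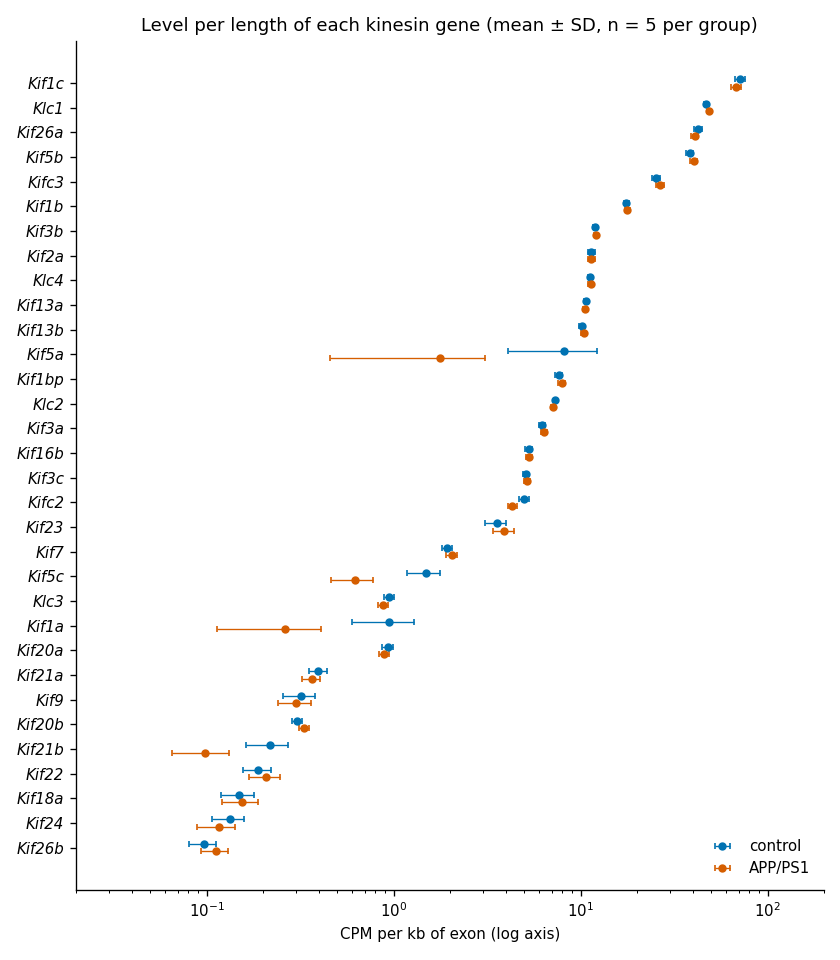
Mean level per length in CPM per kb of exon on a log axis for the 32 kinesin members, in control and APP/PS1 BECs, with SD over 5 libraries. Kif1c, at 71.5 CPM per kb in control BECs, is highest and Kif26b, at 0.0966, lowest, and the groups separate most for Kif5a, Kif1a, Kif5c and Kif21b.

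No kinesin passed the adjusted threshold of 0.05 between APP/PS1 and control BECs by limma with Benjamini-Hochberg adjustment over all genes, and nor did any of the 14106 genes (background 0%). The smallest adjusted p of a member was 0.441, for Kif5c. At an unadjusted p under 0.05, 5 of the 32 members (15.6%) were lower in APP/PS1 BECs, beside 5.91% of all genes, and 0 were higher, beside 2.13% of all genes, or 8.03% of all genes in either direction. The 5 were Kif5c, Kif21b, Kif1a, Kifc2 and Kif5a. Lower by more than 1 log2 unit were 4 members, all but Kifc2 of these 5, beside 1.42% of all genes, and 0 members were higher by as much, beside 0.404%. The median log2 fold change of the 32 members was 0.00750 beside −0.00377 for all genes, with 14 members negative and 18 positive. Scaled by library size alone, that median was −0.0298 beside −0.0409 for all genes, and without pair 3 it was −0.00389.

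Leaving out pairs in turn, the number of lower members at an unadjusted p under 0.05 ran from 3 to 6. It was 3 without pair 1, pair 3 or pair 4, when Kif5a and Kifc2 no longer passed. Over all genes the lower count was 517, 549 and 609 in these fits. It was 1182 without pair 2 and 700 without pair 5, beside 833 with all pairs. Kif5c, Kif1a and Kif21b kept a p under 0.05 with any 1 pair left out.

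**Figure D2:**
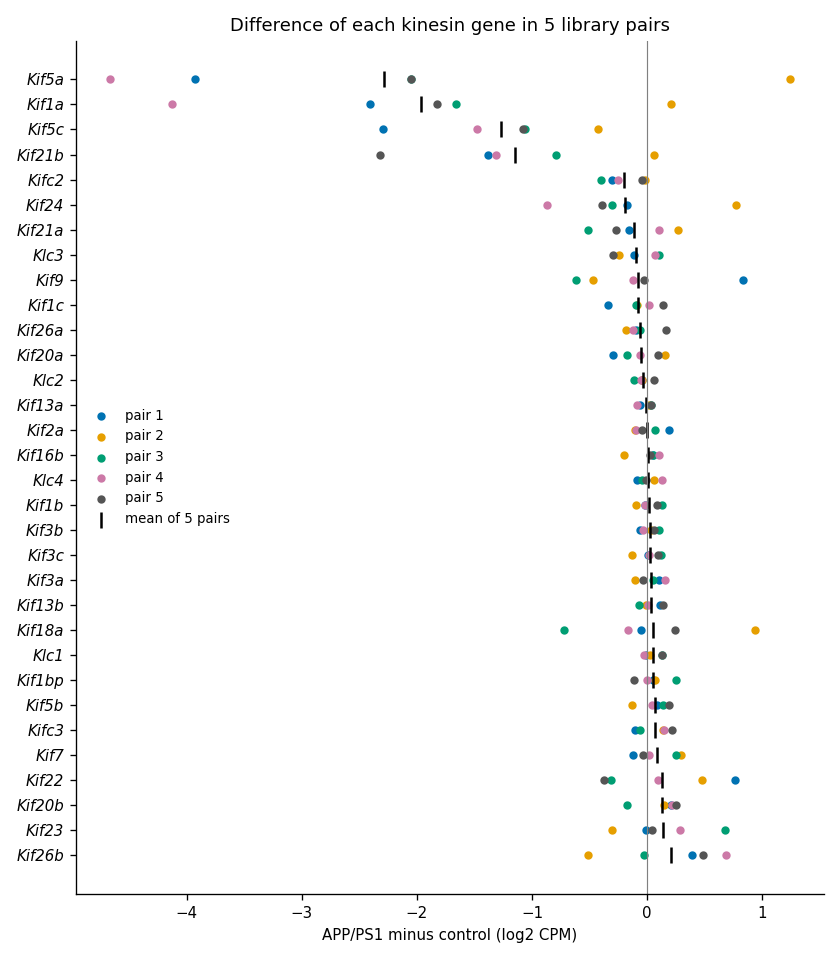
Difference between APP/PS1 and control BECs in log2 CPM for each kinesin member, with a point for each of the 5 pairs and a bar for their mean. Kif5a, with a mean of −2.29, and Kif1a, with −1.96, spread most widely between pairs, while the means of the 27 members other than Kif5a, Kif1a, Kif5c, Kif21b and Kifc2 lie between −0.19 and 0.20.

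Among the kinesin-1 heavy chains, the forms known from neurons were lower on average in APP/PS1 BECs, while Kif5b lay close to its control level. Kif5c (chr2:49619298-49774778, GRCm38), which carries cargo along axons and dendrites, had 3.78, 2.98, 3.33, 3.51 and 3.33 log2 CPM in control libraries 1 to 5. The APP/PS1 libraries had 1.48, 2.55, 2.27, 2.04 and 2.26, so every APP/PS1 library lay below every control library. Kif5c was 1 of 2 members whose groups did not overlap in that direction, beside 4.96% of all genes, while 0 members had groups apart in the other direction, beside 2.91% of all genes. Pair means of the deposited values are nearly equal, so groups apart and a lower value in every pair are nearly the same observation. Its log2 fold change was −1.27 with an SE of 0.258, or 2.41-fold lower, with an adjusted p of 0.441 by limma and an unadjusted p of 0.00297. These values rest on 61 to 1259 adjusted counts per library.

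Kif5a (chr10:127225696-127263348), an axonal kinesin whose human gene is mutated in hereditary motor neuron disorders, had 6.30, 3.48, 5.81, 6.37 and 5.81 log2 CPM in control libraries 1 to 5. In APP/PS1 libraries 1 to 5 it had 2.37, 4.72, 3.76, 1.70 and 3.76. Control library 2 was low and APP/PS1 library 2 high, so the groups overlapped and pair 2 ran the other way. The mean difference was −2.29 with an SE of 0.850, 4.89-fold lower, with an adjusted p of 0.594 by limma and an unadjusted p of 0.0371. Without pair 2 the difference was −3.17 with an unadjusted p of 0.00228, and without pair 4 it was −1.70 with an unadjusted p of 0.108. The unadjusted p was also above 0.05 without pair 1, pair 3 or pair 5, at 0.110, 0.0718 and 0.0735.

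Kif5b, the heavy chain of most tissues, had 8.25, 8.35, 8.22, 8.27 and 8.20 log2 CPM in control libraries and 8.34, 8.23, 8.36, 8.32 and 8.39 in APP/PS1 libraries. The groups overlapped, and the log2 fold change of 0.07 had a 95% interval from −0.08 to 0.21 and an adjusted p of 0.846 by limma. In every pair the difference of Kif5c lay below that of Kif5b. Kif5c minus Kif5b was −2.38, −0.30, −1.20, −1.52 and −1.26 log2 units in pairs 1 to 5. The mean of this difference of fold changes was −1.33 with an SE of 0.334 and a two-sided exact sign-flip permutation p of 0.0625, the smallest that 5 pairs can give. For Kif5a against Kif5b the difference was −2.36 with an SE of 1.05, lower in 4 of 5 pairs, with an exact permutation p of 0.125. Over the 6 contrasts between related kinesins that were computed, each Benjamini-Hochberg adjusted p was 0.125.

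Per length of exon, Kif5b made up most of the kinesin-1 heavy chain transcripts in both groups. Its share (mean ± SD, n = 5) was 80.4% ± 7.98 in control BECs against 94.4% ± 3.40 in APP/PS1 BECs. Kif5a made up 16.5% ± 7.63 in control BECs, with a range from 3.65% to 22.6%, and 4.12% ± 3.08 in APP/PS1 BECs, with a range from 1.12% to 8.95%. For Kif5c the shares were 3.07% ± 0.435 and 1.45% ± 0.362, and the lowest control library, at 2.52%, lay above the highest APP/PS1 library, at 1.94%. Kif5a was thus the second most abundant heavy chain per length in control BECs, at 8.13 ± 4.06 CPM per kb, and had 1.77 ± 1.31 in APP/PS1 BECs.

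**Figure D3:**
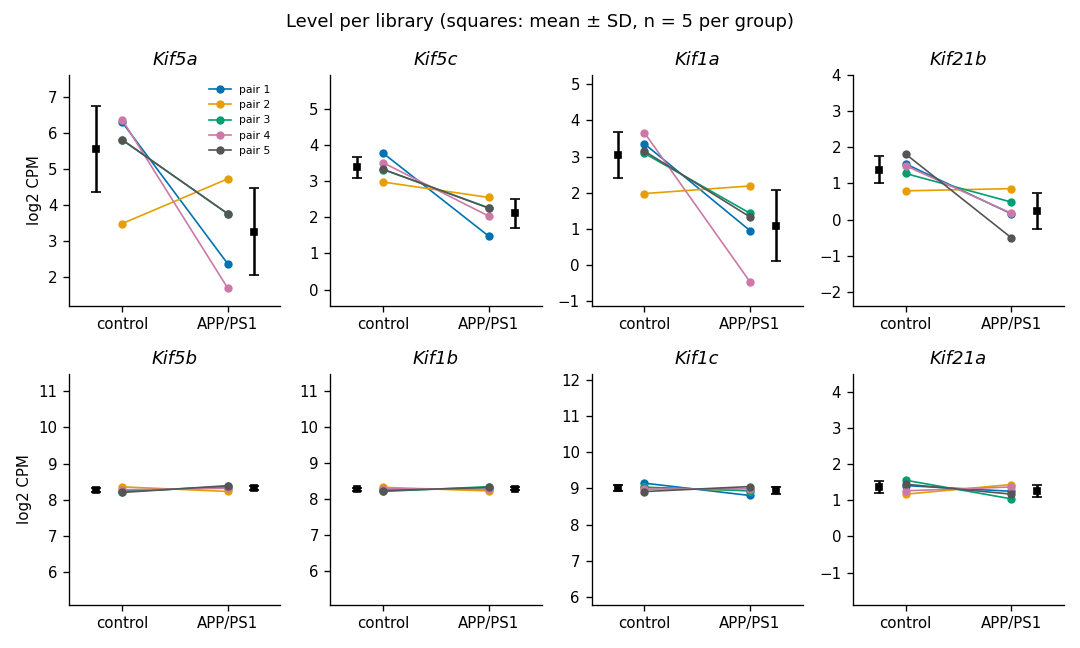
Level in log2 CPM of related kinesins in the 5 control and 5 APP/PS1 libraries, with the libraries of a pair joined by a line and squares for the mean ± SD. The lines of Kif5c all run down, from 3.39 ± 0.292 to 2.12 ± 0.401, those of Kif5a and Kif1a run down in 4 of 5 pairs, and those of Kif5b and Kif1c stay nearly level.

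The light chains, which link kinesin-1 to its cargo, differed little between groups. Klc1 had 7.61, 7.59, 7.54, 7.62 and 7.54 log2 CPM in control libraries and 7.60, 7.61, 7.67, 7.59 and 7.67 in APP/PS1 libraries. Klc2 had 4.93, 4.92, 4.96, 4.93 and 4.88 in control and 4.88, 4.88, 4.85, 4.88 and 4.93 in APP/PS1 libraries. The groups overlapped for both genes, with log2 fold changes of 0.05 and −0.04 and adjusted p values of 0.855 and 0.876 by limma. Klc3 had 1.36, 1.41, 1.23, 1.26 and 1.44 log2 CPM in control libraries and 1.25, 1.17, 1.33, 1.33 and 1.14 in APP/PS1 libraries. Klc4 had 4.79, 4.72, 4.77, 4.69 and 4.75 in control and 4.70, 4.77, 4.73, 4.82 and 4.74 in APP/PS1 libraries. Their log2 fold changes were −0.10 and 0.01, and the 95% intervals of all 4 light chains lay between −0.29 and 0.17. Klc1 accounted for 70.6% ± 0.739 of light chain transcripts per length in control and 71.5% ± 0.765 in APP/PS1 BECs.

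In the kinesin-3 group, Kif1a was the only 1 of 6 members with an unadjusted p under 0.05. Kif1a (chr1:93015464-93101951), which carries synaptic vesicle precursors and dense core vesicles, had 3.35, 1.97, 3.09, 3.66 and 3.15 log2 CPM in control libraries 1 to 5. Its values in APP/PS1 libraries were 0.95, 2.18, 1.43, −0.47 and 1.33. The groups overlapped through pair 2, the only pair in which APP/PS1 was higher, by 0.21. The log2 fold change was −1.96 with an SE of 0.581, 3.90-fold lower, with an adjusted p of 0.563 by limma and an unadjusted p of 0.0157. It was −2.50 without pair 2 and −1.42 without pair 4. The lowest library held 42 adjusted counts of Kif1a and the highest 1396.

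Kif1c had 9.15, 9.03, 9.03, 8.98 and 8.91 log2 CPM in control libraries and 8.80, 8.94, 8.94, 9.0 and 9.05 in APP/PS1 libraries. The log2 fold change was −0.08 with a 95% interval from −0.26 to 0.11. Kif1b, which carries mitochondria and synaptic vesicle precursors, had 8.29, 8.33, 8.22, 8.29 and 8.24 in control and 8.27, 8.23, 8.35, 8.28 and 8.33 in APP/PS1 libraries. Kif13b had 7.01, 7.07, 7.10, 7.06 and 7.0 in control and 7.12, 7.06, 7.03, 7.07 and 7.13 in APP/PS1 libraries. The groups overlapped for all 3 genes. The log2 fold change of Kif1a minus that of Kif1b was −1.98 (SE 0.707), and minus that of Kif1c it was −1.89 (SE 0.708), lower in 4 of 5 pairs in both cases, each with an exact sign-flip permutation p of 0.125. Per length, Kif1a made up 1.05% ± 0.383 of Kif1 transcripts in control and 0.306% ± 0.175 in APP/PS1 BECs, while Kif1c made up 79.4% ± 0.949 and 78.9% ± 1.02. The log2 fold changes of Kif13a and Kif16b, which sort endosomes, were −0.01 and 0.01.

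Kif21b (chr1:136131389-136177998), a kinesin-4 that also slows the growth of microtubules, had 1.54, 0.80, 1.28, 1.49 and 1.82 log2 CPM in control libraries. It had 0.16, 0.86, 0.49, 0.18 and −0.50 in APP/PS1 libraries. Pair 2 was level, at 0.06, and the other pairs had differences of −1.38, −0.79, −1.31 and −2.32. The log2 fold change was −1.15 with an SE of 0.326, with an adjusted p of 0.553 by limma and an unadjusted p of 0.0132. This gene was sparse, with 24 to 430 adjusted counts per library. Its close relative Kif21a had 1.37 ± 0.153 log2 CPM in the control group against 1.26 ± 0.157 in the APP/PS1 group. The fold change of Kif21b was lower than that of Kif21a in 5 of 5 pairs, with a mean difference of −1.03, an SE of 0.351 and an exact permutation p of 0.0625. Kif7, the kinesin-4 of Hedgehog signaling in the cilium, had 3.25, 3.04, 3.07, 3.19 and 3.21 log2 CPM in control libraries and 3.13, 3.34, 3.32, 3.21 and 3.18 in APP/PS1 libraries, and its log2 fold change was 0.08.

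Kifc2 and Kifc3 are kinesin-14 motors, which walk toward the minus end. Kifc2 (chr15:76659858-76668196) had 4.34, 4.20, 4.39, 4.32 and 4.22 log2 CPM in control libraries and 4.04, 4.18, 3.99, 4.07 and 4.17 in APP/PS1 libraries. The groups did not overlap. Kifc2 and Kif5c were the 2 members lower in all 5 pairs, beside 5% of all genes, while 0 members were higher in all 5, beside 2.99%. With pair means nearly equal, this adds little to the groups being apart. The size was small: a log2 fold change of −0.20 with an SE of 0.0730, 1.15-fold lower, with an adjusted p of 0.582 by limma and an unadjusted p of 0.0326. That p was 0.0920, 0.0971 and 0.0870 without pairs 1, 3 and 4, and with libraries scaled by size alone Kifc2 was lower in 4 of 5 pairs. Kifc3 had 7.15, 7.03, 7.14, 7.03 and 7.0 log2 CPM in control libraries and 7.05, 7.17, 7.07, 7.18 and 7.21 in APP/PS1 libraries. Kifc2 was lower relative to Kifc3 in 5 of 5 pairs, with a mean difference of −0.27, an SE of 0.0449 and an exact permutation p of 0.0625. Of the exon bases of Kifc2, 4.15% are shared with Cyhr1 on the other strand. Whether the authors' counting used strand is not stated in the sources used here, so reads in shared bases could belong to either gene. The same holds for Klc3, which shares 28.1% of its exon bases with Ercc2, and for Kif2a, which shares 19.2% with Dimt1. Kif5a, Kif5c, Kif1a and Kif21b share no exon bases with another annotated gene.

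Kinesin-2 motors move cargo into cilia and carry membrane organelles. Kif3a, Kif3b and Kif3c had log2 fold changes of 0.03, 0.02 and 0.02 with 95% intervals that together ran from −0.11 to 0.17. Kif3b took 51.4% ± 1.02 of these transcripts per length in control and 51.2% ± 1.05 in APP/PS1 BECs. An antisense gene, 1110002L01Rik, shares 35.3% of the exon bases of Kif3c.

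The 5 mitotic members, which act on spindles and in cytokinesis, were mostly near the lower end of the levels, and none passed an unadjusted p of 0.05. Kif20b had the smallest p of these, 0.141 before and 0.775 after adjustment by limma. It had 1.07, 1.09, 1.25, 1.06 and 1.04 log2 CPM in control libraries and 1.28, 1.24, 1.07, 1.28 and 1.29 in APP/PS1 libraries. APP/PS1 was higher in all but pair 3. Without pair 3 the unadjusted p of Kif20b by limma was 0.0125 and the adjusted p 0.929. Without pairs 1, 2, 4 and 5 the unadjusted p was 0.284, 0.231, 0.293 and 0.323. Kif23, which bundles the central spindle in cytokinesis, was the most abundant of the 5, with 4.80 ± 0.190 in control and 4.94 ± 0.178 in APP/PS1 BECs. The log2 fold changes of Kif18a, Kif20a, Kif22 and Kif23 were 0.05, −0.06, 0.13 and 0.14. Cdc23 on the opposite strand shares 29.3% of the exon bases of Kif20a.

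Of the remaining members, Kif26a had 8.21, 8.26, 8.20, 8.23 and 8.08 log2 CPM in control libraries and 8.12, 8.07, 8.14, 8.11 and 8.25 in APP/PS1 libraries. Its relative Kif26b had 0.45, 0.86, 0.65, 0.28 and 0.39 in control and 0.84, 0.35, 0.63, 0.96 and 0.87 in APP/PS1 libraries. The groups of both genes overlapped, with log2 fold changes of −0.06 and 0.20. Kif26b reached an unadjusted p of 0.0304 only without pair 2, among the pairs left out in turn. Kif2a, which takes microtubules apart at their ends, Kif24, Kif9 and Kif1bp had log2 fold changes of 0.0011, −0.19, −0.08 and 0.05. Over the 27 members other than the 5 named above, the median was 0.02 and the smallest unadjusted p 0.141. The 95% intervals of 22 of these 27 lay within 0.5 log2 units of 0, and those of Kif18a, Kif22, Kif24, Kif26b and Kif9 reached further.

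The members were also set against all genes split at the median level. These classes are broad, as mean levels of all genes ran from −2.89 to 12.8 log2 CPM. The median gene of the table had 4.30 log2 CPM. At or below it stood 14 members, of which 4 were lower at an unadjusted p under 0.05, while among the 7053 genes there 704 were lower and 165 higher. Above it stood 18 members, of which Kif5a was lower, while among the other 7053 genes 129 were lower and 135 higher.

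**Figure D4:**
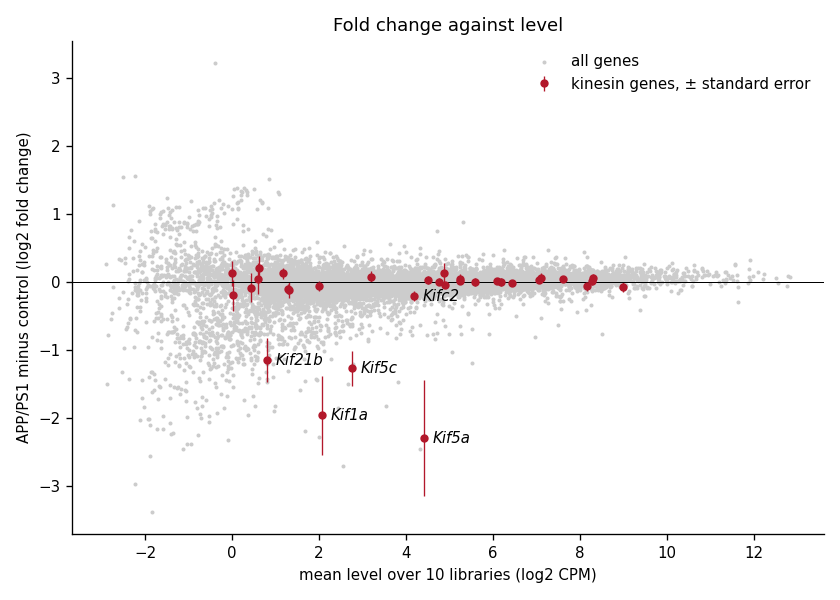
Log2 fold change against mean level in log2 CPM for all 14106 genes, with the kinesin members marked and those with an unadjusted p under 0.05 named. Kif5c, Kif1a, Kif21b and Kifc2 lie at or below the median level of 4.30, and Kif5a, at −2.29, lies just above it.

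Markers of other cell types moved with some of these members. Summed over 7 measured oligodendrocyte markers of 8, levels were 38.6 to 118 CPM in control and 29.5 to 69.7 in APP/PS1 libraries. The log2 differences of that sum were −2.0, 0.85, −1.48, −1.70 and −1.55 in pairs 1 to 5, beside −3.92, 1.24, −2.05, −4.67 and −2.05 for Kif5a and −2.40, 0.21, −1.66, −4.13 and −1.82 for Kif1a. Pair 2 was thus the 1 pair with higher oligodendrocyte markers, higher Kif5a and higher Kif1a in APP/PS1 BECs, and an exact sign-flip permutation p for the marker sum was 0.125. Each of the 7 genes was lower on average, 5 of them at an unadjusted p under 0.05, and Mag and Ermn were at 0 in at least 1 library.

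Summed over 6 markers of mural cells, the contractile cells around vessels, levels were 464 to 789 CPM in control and 229 to 460 in APP/PS1 libraries, lower in 5 of 5 pairs. Markers of choroid plexus and ependyma (4 of 6 measured) summed to 42.2 to 80.9 and 15.6 to 40.6 CPM, and those of oligodendrocyte precursor cells (6 of 6) to 44.8 to 58.7 and 34.1 to 44.0 CPM, also lower in 5 of 5 pairs. For these 3 sums the exact sign-flip permutation p was 0.0625. In pair 5 they were nearly level, at −0.01 for mural, −0.05 for choroid plexus and ependyma and −0.03 for oligodendrocyte precursor markers. These sums were carried by Rgs5 for mural, Ttr for choroid plexus and ependyma, and Gpr17 and Cspg4 for precursor markers. Sox10, Olig1, Olig2, Pdgfra, Cspg4 and Gpr17 differed by −1.30, −0.91, −0.23, 0.11, 0.03 and −0.04 in pair 5. Tmem72, Clic6, Kl and Ttr differed by −0.82, −0.71, −0.19 and 0.0043. Acta2 and Tagln differed by −0.55 and −0.54, while Pdgfrb, Rgs5, Kcnj8 and Abcc9 were higher, at 0.24, 0.01, 0.12 and 0.37. Kif5a, Kif1a and Kif5c differed by −2.05, −1.82 and −1.08 in that pair. As pair means of the deposited values are nearly equal, separate group ranges largely follow from the 5 lower pairs. Of 10 neuron markers 4 were measured, and their sum of 93.8 to 117 CPM in control and 98 to 122 in APP/PS1 libraries was carried by Stmn2. Snap25, a synaptic vesicle fusion protein, had a log2 fold change of −1.97, lower in 5 of 5 pairs, while those of Stmn2, Syn1 and Gad1 were 0.02, −0.57 and −0.18. Sums for astrocytes (6 of 6 measured) and for microglia and leukocytes (5 of 6) overlapped between the groups, at 162 to 199 against 170 to 210 CPM and at 9.21 to 15.4 against 7.32 to 12.8 CPM. The astrocyte sum was carried by Gja1, with a log2 fold change of 0.27, while the other 5 astrocyte markers were lower on average, Gfap (−0.46) and Slc1a3 (−0.86) at an unadjusted p under 0.05. Slc1a2 differed by −3.11, 0.73, −2.26, −2.49 and −0.25 in pairs 1 to 5, with the same sign in each pair as Kif5a and Kif1a. Slc1a3 shared those signs, and the other astrocyte markers did not. Gfap was lower in pair 2 (−0.31), Aqp4 and Aldh1l1 were higher in pair 5 (0.17 and 1.77), and Gja1 had the opposite sign in each pair. Of the 5 microglial and leukocyte markers 4 were lower on average, 0 at an unadjusted p under 0.05 by limma. The part of these cells in the lower levels of Kif5a, Kif5c, Kif1a, Kif21b and Kifc2 was not tested. In bulk libraries such as these, fewer cells of a type and less RNA per cell cannot be told apart.

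**Figure D5:**
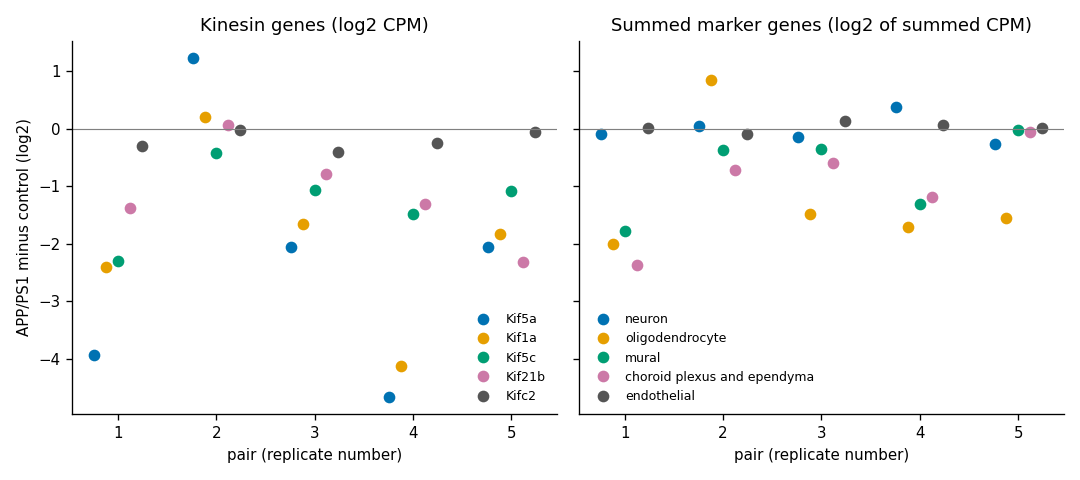
Difference between APP/PS1 and control BECs in each of the 5 pairs, in log2 CPM for the 5 kinesins with an unadjusted p under 0.05 (left) and in log2 of summed CPM for markers of 5 cell types (right). Pair 2 is the only pair above 0 for Kif5a, at 1.24, and for the oligodendrocyte markers, at 0.85, while the endothelial markers lie near 0 in every pair.

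In 5 further lists of genes that work with kinesins or on microtubules, 0 genes passed the adjusted threshold by limma. Their counts at an unadjusted p under 0.05 stand beside 5.91% of all genes lower and 2.13% higher. Of 26 measured kinesin adaptors and regulators, 4 were lower and 1 higher at an unadjusted p under 0.05, and the median log2 fold change was 0.03. Kif1bp, already a member by its symbol, is also in this adaptor list. The lower count was 1 without pair 1, 2 without pair 3 or pair 4, and 2 with limma-voom or with a mean of at least 1 log2 CPM, and the higher count was 2 without pair 2 and 0 without pair 3 or pair 5. The 3 with the smallest p were Ppfia2, a liprin that scaffolds presynaptic sites (−0.42), Mapk8ip1, a scaffold that links kinesin-1 to cargo (−0.34), and Clstn3, a calsyntenin of the synapse (−0.62). Of 31 genes of dynein, the minus-end motor, dynactin and their regulators, 1 was lower, the cargo adaptor Hook1 (−0.36), with a median of 0.00436. The lower count was 0 with limma-voom and without pair 1, 3, 4 or 5, and without pair 2 there were 2 higher genes. Next by p came the centrosomal protein Nin (0.12) and the dynein heavy chain Dync1h1 (0.10), which did not pass. Among 19 genes of intraflagellar transport, which kinesin-2 drives, 2 were lower, Ift43 (−0.21) and Ift74 (−0.14), with a median of −0.03. That count was 1 without pair 3, 4 or 5. Wdr19, a subunit of the same complexes, had a log2 fold change of −0.11 and did not pass.

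Of 13 measured neuronal microtubule proteins, 4 were lower and 1 was higher at an unadjusted p under 0.05. The lower count was 1 without pair 1 and 2 without pair 3 or pair 4, and the higher count was 0 without pair 2, 4 or 5. Those with the smallest p were Map1a (−0.32) and Mapt (−0.42), which bind microtubules in neurites, and the tubulin Tubb4a (−1.47). Of 5 measured spindle and cytokinesis genes 1 was lower, Anln (−1.16), which organizes the contractile ring and is also expressed in oligodendrocytes. It did not pass without pair 1, 3, 4 or 5. Incenp (0.09) and Nusap1 (−0.18), which act on the spindle, did not pass. The median log2 fold changes of both lists were −0.01.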

How the data were processed

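Bulk RNA sequencing of BECs was analysed in 10 libraries. By the study's methods, the authors used STAR for alignment to mm10, HTSeq-count for counting, filterByExpr and cpm of edgeR for filtering and scaling, and ComBat for the batch correction. The authors deposited log2 CPM for 14106 genes. Versions of these tools are not given in the sources used here. In each library, 100% of the deposited log2 CPM values converted back to whole adjusted counts (tolerance 0.01, prior count 3), which come after the correction. They are no longer reads, and counting error was not derived from them. The methods place ComBat after log CPM, a step that would not in general leave whole numbers, so which correction made the deposited values is not settled here.

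With R 4.3.3 and limma 3.58.1, lmFit and eBayes were fitted to the deposited log2 CPM of all genes with genotype and the replicate number, as a block of 5 pairs, as terms. Benjamini-Hochberg adjustment ran over all genes, the threshold was an adjusted p of 0.05, and intervals are at 95%. The pairing comes from the study's supplement, which gives 5 batches of 1 library per group, while the labels give 4 batches. The deviations of the libraries of a pair mirrored each other, with rank correlations over 10873 genes from −0.999 to −0.989, since the pair means of the deposited values are nearly equal. The SD over pairs of the pair mean was 0.00353 log2 units for the median gene, beside 0.0863 for the distance of a library from its pair mean. The control and APP/PS1 values of a pair are therefore 1 independent piece of information, and an SD within a group reflects the pair differences.

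Levels per length were CPM per kb of the union of exons in GENCODE M21 on GRCm38 (mm10), where all 14106 identifiers matched. Paralog contrasts and marker sums were tested by two-sided exact sign-flip permutation over the pairs. Values of every library are given for the kinesin-1 subunits, the 8 other members with the smallest p and the 3 others with the highest mean level, and the 3 genes with the smallest p were named from each further list, with any other member named by its group. The members, lists and paralog contrasts were chosen with earlier results of these data known. Single marker genes and Kif24, Kif9 and Kif1bp were named after their values were seen. Alternatives were no block, 4 batches, eBayes with a trend, limma-voom, a prior count of 0.5, a mean of at least 1 log2 CPM, TMM and median-of-ratios factors, and leaving out each pair. Library size alone was added once values had been seen. The fit was tested on simulated data.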

Additional observations from a re-analysis of the deposited data

Results flagged for a closer look

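In groups of 5 libraries, a library was picked out when its gap to the nearest other library was a large share of the range of its group (Dixon's test). Of 52 groups searched, 5 held such a library, where chance gives about 3 at 1 in 20. Kif5a in control library 2 had 3.48 log2 CPM, while the other control libraries had 5.81 to 6.37. Kif20b in control library 3 had 1.25 log2 CPM, while the others had 1.04 to 1.09. Kif20b in APP/PS1 library 3 had 1.07 log2 CPM, while the others had 1.24 to 1.29. The summed oligodendrocyte markers had 5.27 log2 CPM in control library 2, while the others had 6.64 to 6.88. In APP/PS1 library 2 that sum was 6.12 log2 CPM, while the others had 4.88 to 5.16. The entries of a pair are not independent of each other, because the pair means are nearly equal in the deposited values.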

How the results depend on the processing

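The block and the pairing mattered most. With no replicate block, 2 members passed the adjusted threshold by limma, Kif5c with an adjusted p of 0.0130 and Kif21b with 0.0415. There 648 of all genes passed that threshold, and 1 member was higher at an unadjusted p under 0.05, beside 1212 of all genes. That fit does not count the degrees of freedom used where pair means are equal. It also gave 2 lower and 3 higher dynein genes and 5 lower genes of intraflagellar transport. In every other fit, with 5 pairs or 4 batches as the block, 0 members passed. With 4 batches as the replicate block, 1 dynein gene was higher, as with a variance trend, which left 1 lower gene of intraflagellar transport, as did median-of-ratios factors. With limma-voom 0 dynein genes and 2 adaptors were lower. With a mean of at least 1 log2 CPM 2 adaptors and 0 spindle genes were lower, and Kif21b was left out. Library size alone, an alternative chosen after seeing the data, moved the median of all genes to −0.0409. Under it 1 member was lower in all pairs, 0 adaptors and 0 neuronal microtubule proteins were higher, the kinesin-1 median was −0.0772 and the adaptor median −0.00296, and Klc4, Kif1b and Kif13b turned to −0.0278, −0.0206 and −0.00077. With 1 pair left out in turn, members passing the adjusted threshold stayed at 0 to 0. At an unadjusted p under 0.05, lower members ranged from 3 to 6, beside 517 to 1182 of all genes. Higher members ranged from 0 to 1, beside 201 to 826 of all genes. Members lower in all remaining pairs ranged from 2 to 6 and those higher in all of them from 0 to 3. Fewer pairs make that rule easier to meet. Its share over all genes is not given here, so these counts do not set the members apart. The lower counts ranged from 0 to 1 for dynein, 1 to 4 for adaptors, 1 to 3 for intraflagellar transport, 0 to 1 for the spindle and 1 to 4 for neuronal microtubule proteins, and the higher counts from 0 to 2 for dynein, 0 to 2 for adaptors and 0 to 1 for neuronal microtubule proteins. Klc4 ranged from −0.0201 to 0.0340 and Kif1b from −0.0119 to 0.0458 log2 units, while Kif5a, Kif1a, Kif5c, Kif21b and Kifc2 were negative in every alternative in which they were fitted. TMM factors gave the values of the report. The deposited values already carried that scaling, so this alternative could not differ. With 5 pairs, an exact sign-flip p cannot fall below 0.0625.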
